A study of Mus musculus with 8 samples.

Results

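The 34 genes described here mark endothelial cells, the lining of blood vessels, lymphatic vessels and the inner surface of the heart. Other heart cells also express 8 of them: Fabp4, Aqp1, Fli1, Lmo2, Thbd, Ece1, Eng and S1pr1. They were taken by symbol from a list of genes known for their expression in endothelium, and all 34 were found among the 37982 genes of the authors' deposited table. RNA-seq was run on ventricles of C57BL/6 mice at postnatal day 7, with the atria trimmed away. The 8 samples were 3 triple mutant, 3 double mutant and 2 wild type hearts. Triple mutant mice carried altered Mkl2, Myh7 and Nkx2-5, double mutant mice carried altered Mkl2 and Myh7 only, and wild type mice carried none of these, as far as the labels and what is known of the study give it. The labels spell out neither the alleles nor their zygosity, and no Cre or transgene is named. Triple mutant against wild type asks which genes differ in the diseased heart, and triple mutant against double mutant asks which genes differ when the Nkx2-5 modifier is added. Double mutant against wild type completes the triangle.

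Endothelial cells are held together by junctions of VE-cadherin (Cdh5), Pecam1 and claudin 5, and are kept alive and quiescent by VEGF signalling through Kdr and Flt1 and by angiopoietin signalling through Tek. Their identity rests on transcription factors of the ETS family (Erg, Fli1) and the SoxF family (Sox7, Sox17, Sox18), and flowing blood sets many of their genes through Klf2. In the heart they form the coronary arteries and veins, a dense capillary bed beside the muscle cells, and the endocardium, and the capillary bed grows fast in the week after birth.

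Each gene had 1 value per group, in FPKM (fragments scaled to transcript length and to the number of mapped fragments), which the authors computed over the libraries of that group. FPKM is per length, so levels can be set side by side between genes. No value per library and no count was used, so the depth is unknown and the spread between hearts enters only through the authors' own p and q. A difference is called here at a deposited q under 0.05, where q is the p adjusted over the genes of all 3 comparisons together. Standard errors of log2 fold changes are those that the deposited p implies under a normal law. The 3 comparisons share their groups, so on the log2 scale the triple mutant over wild type value of a gene is the sum of its other 2 values.

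The endothelial genes were present at moderate to high levels in every group. Their FPKM in triple mutant ventricles ran from 4.71 for Vwf to 188 for Cdh5, and none of the 34 lacked a usable estimate in any comparison. Summed over the 34, the levels came to 1711 FPKM in triple mutant, 2005 FPKM in double mutant and 1930 FPKM in wild type ventricles. In bulk tissue, fewer endothelial cells and less RNA of these genes per cell cannot be told apart. The highest members were Cdh5, Pecam1, S1pr1, Cldn5, Cd93 and Ramp2, all over 100 FPKM in each group, and the lowest were Vwf, Nos3 and Sox17.

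**Figure D1:**
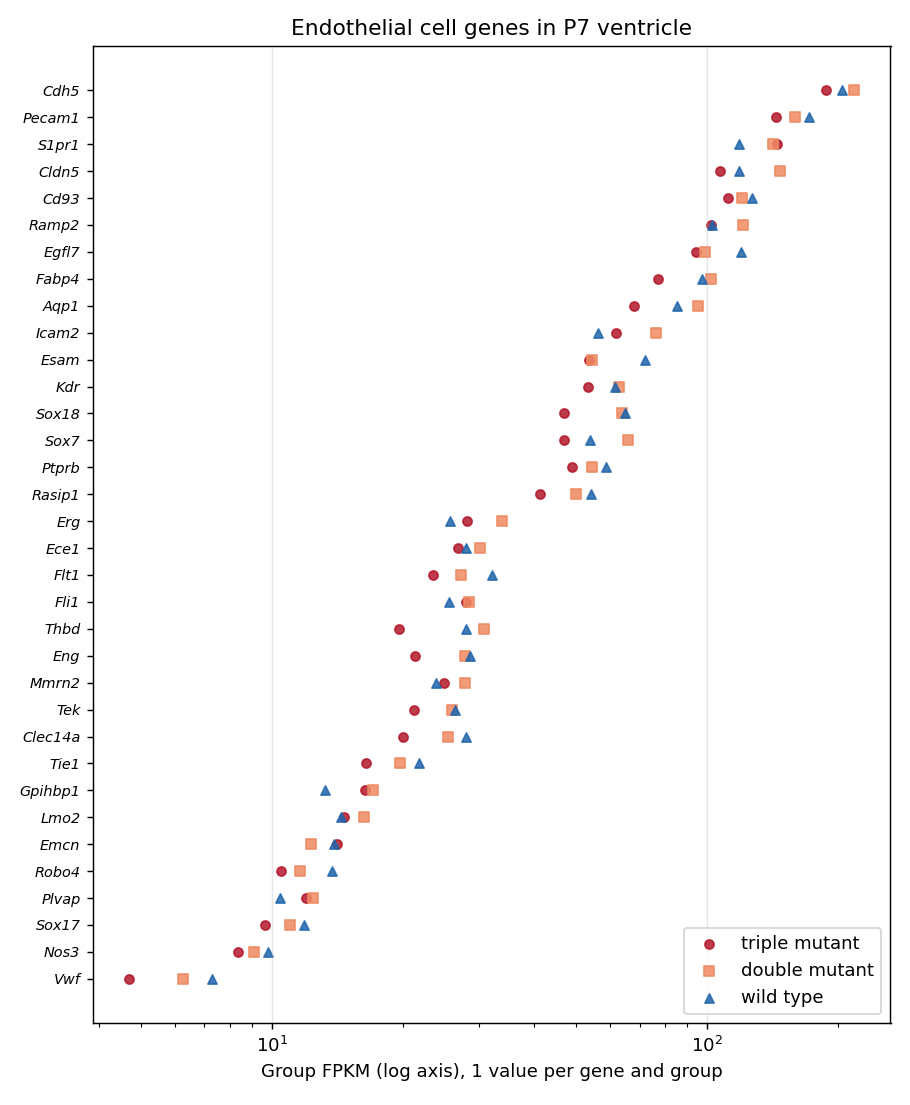
Level of each of the 34 endothelial genes in FPKM, on a log axis, in triple mutant, double mutant and wild type ventricles, with 1 point per group (the authors' group value, so no error bar). The levels of a gene lie close together beside the range between genes, from Vwf at 4.71, 6.26 and 7.28 FPKM to Cdh5 at 188, 218 and 204 FPKM in triple mutant, double mutant and wild type.

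Triple mutant ventricles had the lowest level of most of these genes. Triple mutant FPKM was below that of both other groups for 25 of the 34 (73.5%), whereas this order held for 28.9% of the 12405 genes tested in all comparisons at a mean of 1 FPKM or more. The commonest order was triple mutant, double mutant, wild type from low to high, with 16 of 34 members against 16.1% of all genes. In 9 members the double mutant was highest and wild type lay between, and in 7 members wild type was lowest and double mutant highest. Emcn and S1pr1 alone were highest in triple mutant ventricles, and no member had the order double mutant, triple mutant, wild type, which 20.7% of all genes had. In a list of further endothelial genes, triple mutant was lowest for 23 of 28 (82.1%). Like the 34, that list was chosen with earlier results of these data known.

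Against wild type, 25 of 34 members had lower and 9 had higher FPKM in triple mutant ventricles, with a median log2 fold change of −0.24, while the median over all 12986 genes tested was −0.003 and 50.4% of them were lower. At q under 0.05 in the authors' deposited table, 2 members were called lower, Thbd and Clec14a, and none higher. Over all genes tested in that comparison, 0.362% were called lower and 1.16% higher. At a deposited p under 0.05, 10 members were lower and 1, S1pr1, was higher, against 4.71% and 7.43% of all genes. The median implied SE of a member's log2 fold change was 0.15.

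Against the double mutant, 32 of 34 members had lower FPKM in triple mutant ventricles. The exceptions were Emcn and S1pr1, and with FPKM rescaled to the same sum in each group 30 of 34 were lower, Esam and Fli1 turning to 0.03 each. The median log2 fold change was −0.22, against −0.001 over all 12786 genes tested, of which 50.2% were lower. Here 3 members were called lower at q under 0.05 in the authors' deposited table, Thbd, Sox7 and Aqp1, and none higher. Of all genes, 0.547% were called lower and 0.704% higher. Members at a deposited p under 0.05 were 7 lower and 0 higher, and the shares over all genes were 4.25% and 4.21%.

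Between double mutant and wild type ventricles the members were split evenly. Of the 34 members 17 were lower and 17 higher in the double mutant, the median log2 fold change was 0.01, and the range ran from −0.40 for Esam to 0.44 for Icam2. None of them was called in either direction at a deposited q under 0.05, where 0.767% of all 13034 genes were called lower and 1.89% higher. At a deposited p under 0.05, Esam was lower and Cldn5, Sox7, Erg and Icam2 were higher, which is 1 and 4 of 34 beside 6.86% and 9.46% of all genes. At q under 0.1, the level at which the authors marked genes, Sox18 joined the members called lower in triple mutant over wild type (3 of 34, against 0.778% of all genes), and Cldn5 and Sox18 joined those in triple mutant over double mutant (5 of 34, against 0.962%). In double mutant over wild type no member was called lower at that level, where 1.43% of all genes were.

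**Figure D2:**
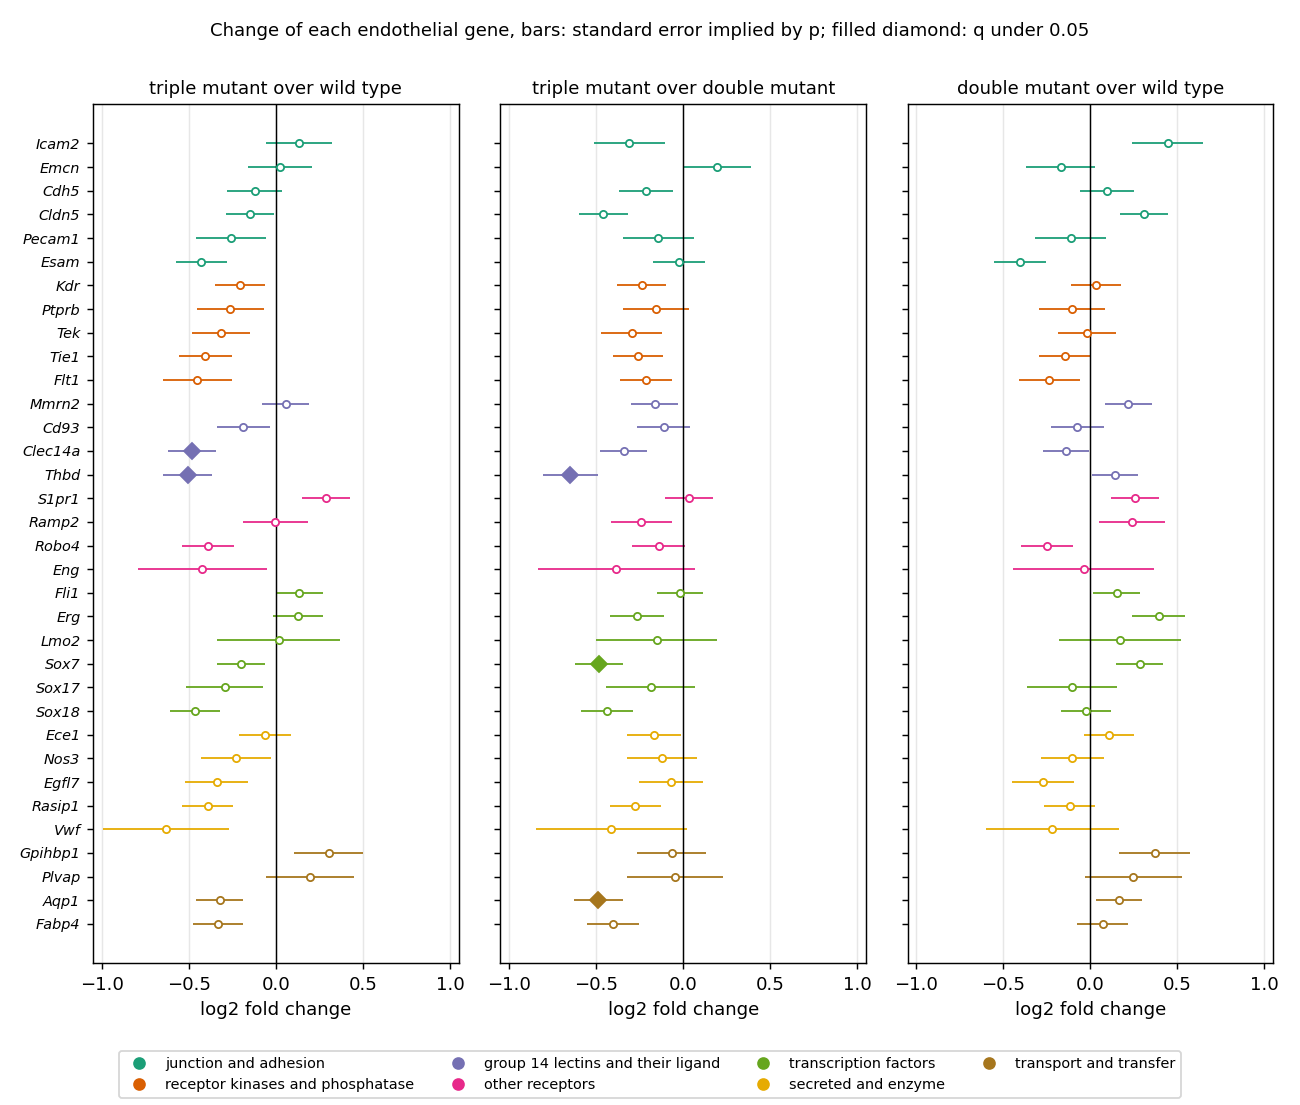
Log2 fold change of each of the 34 endothelial genes in triple mutant over wild type, triple mutant over double mutant and double mutant over wild type (3 panels), with bars of 1 SE as implied by the deposited p and colours by role; filled diamonds mark a deposited q under 0.05. In both triple mutant panels most points lie left of 0 (25 and 32 of 34), with Thbd and Clec14a filled in the first and Thbd, Sox7 and Aqp1 in the second, whereas 17 points lie on each side in the double mutant over wild type panel.

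Thrombomodulin (Thbd), the endothelial receptor that turns thrombin towards activating protein C, was the only member called in both comparisons of the triple mutant. Its level was 19.6 FPKM in triple mutant, 30.8 FPKM in double mutant and 27.9 FPKM in wild type ventricles. In the authors' deposited table it fell 1.57-fold in triple mutant over double mutant (log2 fold change −0.65, q = 0.0066). Its p of 5e-05 there is the lowest the table holds, so its SE is at most 0.16. Against wild type, Thbd fell 1.42-fold in triple mutant (log2 fold change −0.51, SE 0.14, q = 0.0271 in the authors' deposited table). Double mutant over wild type, its log2 fold change was 0.14 with q = 0.787 in the authors' deposited table. The gene lies alone in its locus, chr2:148230207-148233924 of mm9.

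Thbd belongs to the group 14 family of C-type lectins, as do Clec14a and Cd93, and Mmrn2 is the matrix protein of vessels that Clec14a and Cd93 bind. Clec14a had 20.0 FPKM in triple mutant, 25.4 FPKM in double mutant and 28.0 FPKM in wild type ventricles. It fell 1.40-fold in triple mutant over wild type (log2 fold change −0.48, SE 0.14, q = 0.0342 in the authors' deposited table). The authors' deposited table gave it a log2 fold change of −0.34 in triple mutant over double mutant (p = 0.012, q = 0.206) and −0.14 in double mutant over wild type (q = 0.785). Its locus is chr12:59365707-59370245 of mm9. The other genes of this group were not called. Cd93 had 112, 121 and 127 FPKM and Mmrn2 24.8, 27.8 and 23.9 FPKM in triple mutant, double mutant and wild type. For Cd93, one of the 6 highest members, the authors' deposited table gave log2 fold changes of −0.19 in triple mutant over wild type (q = 0.729), −0.11 in triple mutant over double mutant (q = 0.887), and −0.07 in double mutant over wild type (q = 0.941). Medians over the 4 genes were −0.33, −0.25 and 0.03 in triple mutant over wild type, triple mutant over double mutant and double mutant over wild type.

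Among the transcription factors, Sox7 and Sox18, which act partly in place of each other in vessels, were lowest in triple mutant ventricles but differed in the order of the other groups. Sox7 had 47.0 FPKM in triple mutant, 65.7 FPKM in double mutant and 54.0 FPKM in wild type ventricles. It fell 1.40-fold in triple mutant over double mutant (log2 fold change −0.48, SE 0.14, q = 0.0271 in the authors' deposited table). Its level was highest in the double mutant, so that triple mutant over wild type gave −0.20 (q = 0.623) and double mutant over wild type 0.28 (p = 0.0354, q = 0.346) in the authors' deposited table. Sox18 had 47.0 FPKM in triple mutant, 63.7 FPKM in double mutant and 64.8 FPKM in wild type ventricles. It missed the threshold in both comparisons of the triple mutant, with log2 fold changes in the authors' deposited table of −0.47 over wild type (SE 0.15, q = 0.062) and −0.44 over double mutant (SE 0.15, q = 0.0999), beside −0.03 in double mutant over wild type (q = 0.979). Sox17, the third SoxF gene, had 9.67 FPKM in triple mutant, 11.0 FPKM in double mutant and 11.9 FPKM in wild type. The loci of Sox7 and Sox18 are chr14:64562511-64569569 and chr2:181404541-181406345 of mm9.

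The ETS factors Erg and Fli1, which keep many endothelial genes on, were lowest in wild type ventricles, unlike the SoxF genes. Erg had 28.1 FPKM in triple mutant, 33.7 FPKM in double mutant and 25.7 FPKM in wild type ventricles. The authors' deposited table gave Erg a log2 fold change of 0.39 in double mutant over wild type (SE 0.15, p = 0.0101, q = 0.188), −0.26 in triple mutant over double mutant (q = 0.511) and 0.13 in triple mutant over wild type (q = 0.843). Fli1 had 28.0, 28.4 and 25.5 FPKM in triple mutant, double mutant and wild type, and Lmo2, an adaptor in blood and endothelial transcription complexes, had 14.6, 16.3 and 14.5 FPKM. Of the 6 factors, 3 were lower in triple mutant than in wild type and all 6 were lower than in the double mutant, with medians of −0.09 and −0.22, though Fli1 turned to 0.03 over double mutant once FPKM was rescaled to the same sum in each group.

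The water channel Aqp1, abundant in capillary and venous endothelium, had 68.1 FPKM in triple mutant, 95.5 FPKM in double mutant and 85.2 FPKM in wild type ventricles. It fell 1.40-fold in triple mutant over double mutant (log2 fold change −0.49, SE 0.14, q = 0.0342 in the authors' deposited table). With q adjusted over that comparison alone it was 0.0503 and no longer called. Triple mutant over wild type gave Aqp1 −0.32 (p = 0.0177, q = 0.251) and double mutant over wild type 0.17 (q = 0.712) in the authors' deposited table. The locus of Aqp1 is chr6:55286426-55298549 of mm9. Fabp4, the fatty acid carrier of heart capillaries, had 77.1 FPKM in triple mutant, 102 FPKM in double mutant and 97.3 FPKM in wild type, with log2 fold changes in the authors' deposited table of −0.40 over double mutant (p = 0.00655, q = 0.152) and −0.33 over wild type (p = 0.0195, q = 0.263), and 0.07 in double mutant over wild type (q = 0.941). Gpihbp1, which carries lipoprotein lipase across capillary cells, had 16.4, 17.1 and 13.3 FPKM in triple mutant, double mutant and wild type, and Plvap, the diaphragm protein of fenestrae, 12.0, 12.4 and 10.47 FPKM. These 4 transport genes were all lower in triple mutant than in double mutant and all higher in double mutant than in wild type (median 0.21; Fabp4 turned to −0.02 when centred on genes of like FPKM), and no gene of the 4 was called between double mutant and wild type.

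The junction and adhesion genes did not share 1 order of the groups. Claudin 5 (Cldn5), the tight junction strand protein of endothelium, had 107 FPKM in triple mutant, 147 FPKM in double mutant and 119 FPKM in wild type ventricles. It missed the threshold in triple mutant over double mutant, with a log2 fold change of −0.46 (SE 0.14, p = 0.001, q = 0.0527 in the authors' deposited table). For Cldn5 the authors' deposited table also gave 0.31 in double mutant over wild type (p = 0.0232, q = 0.287) and −0.15 in triple mutant over wild type (q = 0.771). Its locus is chr16:18776940-18778353 of mm9. Esam, an adhesion molecule of endothelial tight junctions, stood apart from Cldn5: at 53.7 FPKM in triple mutant and 54.6 FPKM in double mutant, it was lower in both than the 72.2 FPKM of wild type. Esam had log2 fold changes in the authors' deposited table of −0.43 in triple mutant over wild type (p = 0.00385, q = 0.114) and −0.40 in double mutant over wild type (p = 0.0066, q = 0.153), neither of them called, and −0.02 in triple mutant over double mutant (q = 0.983).

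Icam2, a ligand for leukocyte integrins, had 61.8 FPKM in triple mutant, 76.6 FPKM in double mutant and 56.3 FPKM in wild type ventricles, and its log2 fold change in double mutant over wild type was 0.44 (p = 0.0307, q = 0.325 in the authors' deposited table). Icam2 had −0.31 in triple mutant over double mutant (q = 0.597) and 0.14 in triple mutant over wild type (q = 0.893) in the authors' deposited table. The adherens junction gene Cdh5 had 188, 218 and 204 FPKM and Pecam1 had 144, 159 and 172 FPKM in triple mutant, double mutant and wild type. Neither reached a p under 0.05 in any comparison. For Cdh5 the log2 fold changes in the authors' deposited table were −0.12 in triple mutant over wild type (q = 0.873), −0.22 in triple mutant over double mutant (q = 0.657) and 0.09 in double mutant over wild type (q = 0.919). Those of Pecam1 in the authors' deposited table were −0.26 (q = 0.701), −0.14 (q = 0.896) and −0.11 (q = 0.927) in the same order of comparisons. Emcn, a sialomucin of veins and capillaries, had 14.1, 12.3 and 13.9 FPKM in triple mutant, double mutant and wild type. The 6 junction and adhesion genes thus ran in different orders, with Esam and Pecam1 highest in wild type and Cdh5, Cldn5 and Icam2 highest in the double mutant.

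The 4 receptor tyrosine kinases and the phosphatase Ptprb were each lower in triple mutant ventricles than in either other group, and none was called. Flt1, the decoy-like VEGF receptor, had 23.5 FPKM in triple mutant, 27.2 FPKM in double mutant and 32.1 FPKM in wild type. Tie1, the orphan partner of Tek, had 16.5 FPKM in triple mutant, 19.7 FPKM in double mutant and 21.8 FPKM in wild type. Their log2 fold changes in triple mutant over wild type were −0.45 for Flt1 (SE 0.20, p = 0.0233, q = 0.288) and −0.41 for Tie1 (SE 0.15, p = 0.00795, q = 0.167) in the authors' deposited table. Over double mutant, the triple mutant values there were −0.21 for Flt1 (q = 0.638) and −0.26 for Tie1 (q = 0.467), and double mutant over wild type gave −0.24 (q = 0.671) and −0.15 (q = 0.819) in the authors' deposited table. Kdr, the main VEGF receptor, had 53.3, 62.9 and 61.4 FPKM in triple mutant, double mutant and wild type. Tek, the angiopoietin receptor, had 21.2, 26.0 and 26.4 FPKM, and Ptprb, the phosphatase that restrains it, had 48.9, 54.5 and 58.7 FPKM in the same order of groups. Medians over these 5 genes were −0.32 in triple mutant over wild type, −0.24 in triple mutant over double mutant and −0.11 in double mutant over wild type.

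The remaining receptors did not share 1 order of the groups. S1pr1, the receptor through which sphingosine 1-phosphate tightens the endothelial barrier, had 145 FPKM in triple mutant, 141 FPKM in double mutant and 119 FPKM in wild type ventricles. In the authors' deposited table its log2 fold change was 0.29 in triple mutant over wild type (SE 0.14, p = 0.0396, q = 0.363), 0.03 in triple mutant over double mutant (q = 0.973) and 0.25 in double mutant over wild type (p = 0.0655, q = 0.457), and none was called. Robo4, which stabilises vessels, had 10.51, 11.6 and 13.8 FPKM in triple mutant, double mutant and wild type, with a log2 fold change in triple mutant over wild type of −0.39 (p = 0.0094, q = 0.182 in the authors' deposited table). The authors' deposited table gave Robo4 −0.14 in triple mutant over double mutant (q = 0.832) and −0.25 in double mutant over wild type (q = 0.519). Eng, a TGF-beta co-receptor, had 21.3, 27.8 and 28.6 FPKM, and Ramp2, the adrenomedullin receptor partner, had 102.3, 120.9 and 102.5 FPKM in the same order of groups. For Ramp2 the authors' deposited table gave −0.00 in triple mutant over wild type (q = 0.997), −0.24 in triple mutant over double mutant (q = 0.662) and 0.24 in double mutant over wild type (q = 0.706). Eng shared its locus with 4 other genes and Ramp2 with 1, and the implied SE of Eng was 0.37 in triple mutant over wild type.

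The secreted proteins, the enzymes and Rasip1 were all lower in triple mutant ventricles than in wild type and than in double mutant ventricles, without a call. Rasip1, a Ras-binding protein needed for vessel lumens, had 41.3 FPKM in triple mutant, 50.0 FPKM in double mutant and 54.2 FPKM in wild type. Its log2 fold change in triple mutant over wild type was −0.39 (SE 0.15, p = 0.007, q = 0.157 in the authors' deposited table). For Rasip1 the authors' deposited table also gave −0.27 in triple mutant over double mutant (q = 0.449) and −0.12 in double mutant over wild type (q = 0.868). Egfl7, a secreted factor of vessel matrix, had 94.6, 99.1 and 119.7 FPKM in triple mutant, double mutant and wild type. Vwf, the von Willebrand factor that captures platelets, had 4.71, 6.26 and 7.28 FPKM. Its log2 fold change in triple mutant over wild type, −0.63, was the furthest from 0 of all members in that comparison, with an implied SE of 0.36 and p = 0.08 in the authors' deposited table. Nos3, the endothelial nitric oxide synthase, had 8.37, 9.11 and 9.80 FPKM and Ece1, which cleaves endothelin precursors, 26.8, 30.1 and 28.0 FPKM in triple mutant, double mutant and wild type. Egfl7, Nos3, Ece1 and Rasip1 were among the 11 members whose locus in the table held a further gene. In the 23 members with a locus of their own, 21 were lower in triple mutant than in double mutant.

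**Figure D3:**
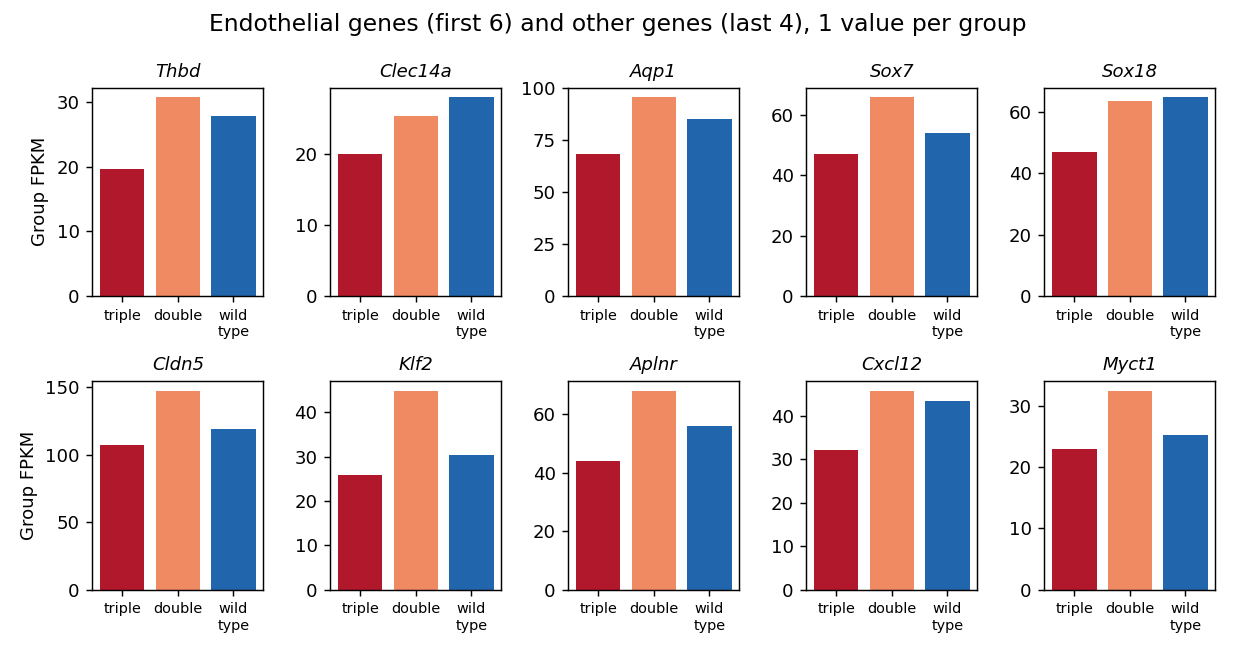
Level in FPKM, on axes from 0, of the endothelial genes Thbd, Clec14a, Aqp1, Sox7, Sox18 and Cldn5 and of Klf2, Aplnr, Cxcl12 and Myct1, in triple mutant, double mutant and wild type ventricles, as 1 bar per group (the authors' group value, so no error bar). The triple mutant bar is the lowest in each panel, and the double mutant bar is the highest in all but Clec14a and Sox18, which are highest in wild type. All genes shown were lower in the triple mutant at a deposited q under 0.1 in at least 1 comparison, so low triple mutant bars follow from the choice. Agtr1a, Vegfb, Angpt1 and 1190002H23Rik, each called higher in 1 comparison, are not shown.

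Promoter sequence is shown for the called genes and the high-level members that the RefSeq table of promoters held. That table (build GRCm38.p6) matched 14 of the 34 members by symbol. Letters were searched on both strands in the 250 bases before the gene start, and the motifs were the ETS core (AGGAAG or CGGAAG), the KLF core CACCC, the SOX core ACAAT, the FOX core AAACA and the GATA core AGATAA. The first 2 are in capitals below, on either strand, and no base lay in both. The windows, 5′ to 3′ on the gene's strand, are chr6:55336049-55336298 (plus strand) for Aqp1, chr12:58269259-58269508 (minus strand) for Clec14a, chr16:18776597-18776846 (plus strand) for Cldn5 and chr2:26580833-26581082 (plus strand) for Egfl7.
Aqp1: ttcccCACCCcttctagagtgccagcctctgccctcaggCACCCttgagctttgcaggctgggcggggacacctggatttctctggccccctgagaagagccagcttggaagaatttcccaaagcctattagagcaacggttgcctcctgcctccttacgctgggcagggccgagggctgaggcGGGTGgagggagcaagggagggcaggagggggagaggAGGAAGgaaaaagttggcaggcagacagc
Clec14a: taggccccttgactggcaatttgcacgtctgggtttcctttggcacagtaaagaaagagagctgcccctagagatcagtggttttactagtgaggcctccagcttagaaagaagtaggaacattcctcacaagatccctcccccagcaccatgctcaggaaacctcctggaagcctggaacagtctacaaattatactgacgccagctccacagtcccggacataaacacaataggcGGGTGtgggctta
Cldn5: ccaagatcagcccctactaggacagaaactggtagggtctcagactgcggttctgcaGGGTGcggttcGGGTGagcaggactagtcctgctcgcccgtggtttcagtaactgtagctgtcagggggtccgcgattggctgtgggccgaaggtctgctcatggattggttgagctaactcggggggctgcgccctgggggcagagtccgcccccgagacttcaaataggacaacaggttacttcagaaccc
Egfl7: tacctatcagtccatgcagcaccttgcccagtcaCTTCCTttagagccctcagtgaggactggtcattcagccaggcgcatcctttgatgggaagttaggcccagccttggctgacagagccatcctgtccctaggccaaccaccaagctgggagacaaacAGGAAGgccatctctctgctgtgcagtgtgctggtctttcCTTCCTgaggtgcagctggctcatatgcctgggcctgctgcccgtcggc

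The Aqp1 window held 1 ETS core and 3 KLF cores, those of Clec14a and Cldn5 held 1 and 2 KLF cores and no ETS core, and that of Egfl7 held 3 ETS cores and no KLF core. Over the 14 member windows, the ETS core stood in 8 and the KLF core in 11, where 39.2% and 52.0% of all 32851 windows in the table held them. The SOX core stood in 4 of 14 (27.7% of all windows), the FOX core in 7 (46.4%) and the GATA core in 0 (9.99%). These letters are a description of the window and mark no bound site.

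Other endothelial genes, outside the 34, had like medians. Of 30 further endothelial genes, 28 were tested in each comparison, and triple mutant FPKM was lower in 24 against wild type and in 25 against double mutant, with medians of −0.23 and −0.24. Double mutant over wild type, 14 were lower and the median was −0.00. Klf2, the flow-induced transcription factor of endothelium, had 25.9 FPKM in triple mutant, 44.8 FPKM in double mutant and 30.4 FPKM in wild type ventricles. In the authors' deposited table Klf2 fell 1.73-fold in triple mutant over double mutant (log2 fold change −0.79, q = 0.0066) and rose 1.47-fold in double mutant over wild type (log2 fold change 0.56, q = 0.0214). Myct1, a membrane protein of endothelium, had 23.0, 32.4 and 25.3 FPKM in triple mutant, double mutant and wild type, and fell 1.41-fold in triple mutant over double mutant (q = 0.0321 in the authors' deposited table). No gene of this list was called in triple mutant over wild type at a deposited q under 0.05, where 5 were lower at a deposited p under 0.05 and 0 higher. Podxl was under 0.1, the level of the authors' marks, in that comparison (log2 fold change −0.45, q = 0.0629 in the authors' deposited table).

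Among ligands and co-receptors of endothelial growth, 2 genes fell in triple mutant over double mutant and 2 rose in double mutant over wild type. The apelin receptor Aplnr had 43.9 FPKM in triple mutant, 67.8 FPKM in double mutant and 55.8 FPKM in wild type, and the chemokine Cxcl12, which guides coronary vessels, had 32.1, 45.6 and 43.4 FPKM. Both fell in triple mutant over double mutant in the authors' deposited table, Aplnr 1.54-fold (q = 0.0066) and Cxcl12 1.42-fold (q = 0.0458). With q adjusted over that comparison alone, Cxcl12 was at 0.0673 and no longer called. Vegfb, a ligand of Flt1, had 603 FPKM in triple mutant, 749 FPKM in double mutant and 495 FPKM in wild type, and rose 1.51-fold in double mutant over wild type (q = 0.0066 in the authors' deposited table). Angpt1, the ligand of Tek, whose locus holds 1 other gene, rose 1.61-fold in the same comparison (q = 0.0356 in the authors' deposited table), at 2.76 FPKM in triple mutant, 3.40 FPKM in double mutant and 2.12 FPKM in wild type. Vegfa, the main ligand of Kdr, had 239.4, 249.8 and 188.4 FPKM and was not called. Over the list the medians were −0.05 in triple mutant over wild type, −0.28 in triple mutant over double mutant and 0.14 in double mutant over wild type. Nrp1 was listed at 0 in triple mutant ventricles with a failed estimate, so no value is given for it.

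The lists for vessel types were small, and their medians differed. In triple mutant over double mutant the medians were −0.19 for 10 arterial genes (9 lower), −0.07 for 4 venous genes (2 lower), −0.31 for 10 capillary genes (9 lower) and −0.08 for 6 endocardial genes (4 lower). In triple mutant over wild type they were −0.15, −0.06, −0.11 and −0.19 in the same order of lists. None of these genes was called in either comparison at a deposited q under 0.05. The capillary gene Tcf15 was under 0.1, the level of the authors' marks, in triple mutant over double mutant (log2 fold change −0.49, q = 0.0663 in the authors' deposited table). Genes lower at a deposited p under 0.05 in triple mutant over double mutant were 1 arterial, 1 venous, 4 capillary and 0 endocardial, where 4.25% of all genes were. The only one higher at that level was endocardial, Nrg1, a growth factor that endocardium sends to the muscle, chosen for mention after its values were seen. It had 1.804 FPKM in triple mutant, 0.841 FPKM in double mutant and 1.56 FPKM in wild type, and a log2 fold change of 1.10 in triple mutant over double mutant (p = 0.0052, q = 0.134 in the authors' deposited table). In double mutant over wild type the capillary median was 0.21, and the capillary gene listed as 1190002H23Rik rose 1.62-fold (52.1 FPKM in double mutant, 32.2 FPKM in wild type, q = 0.0066 in the authors' deposited table). Of 4 lymphatic genes tested, 2 were lower and 2 higher both in triple mutant over wild type (median 0.10) and in double mutant over wild type (median 0.20), and 3 of 3 were lower in triple mutant over double mutant (median −0.11). Prox1 and Lyve1 of the lymphatic list had log2 fold changes of 0.35 (p = 0.0294) and 0.48 (p = 0.0175) in triple mutant over wild type in the authors' deposited table. In double mutant over wild type they had 0.46 (p = 0.0025, q = 0.0889) and 0.59 (p = 0.0033) in the authors' deposited table, and none was called at q under 0.05. Prox1 had 47.7, 51.5 and 37.4 FPKM and Lyve1 3.88, 4.17 and 2.78 FPKM in triple mutant, double mutant and wild type. Which cells the Prox1 RNA came from was not tested. Of 11 vasoactive signalling genes 1 was called: the angiotensin receptor Agtr1a, at 29.3 FPKM in triple mutant, 24.1 FPKM in double mutant and 17.2 FPKM in wild type, rose 1.70-fold in triple mutant over wild type (q = 0.0066 in the authors' deposited table). In that comparison 5 genes of the list were lower and 6 higher (median 0.03), with 2 each way at a deposited p under 0.05. The lowest was Ace, at 3.42, 4.13 and 5.26 FPKM in triple mutant, double mutant and wild type. It was not called in triple mutant over wild type (log2 fold change −0.62, q = 0.0575 in the authors' deposited table).

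**Figure D4:**
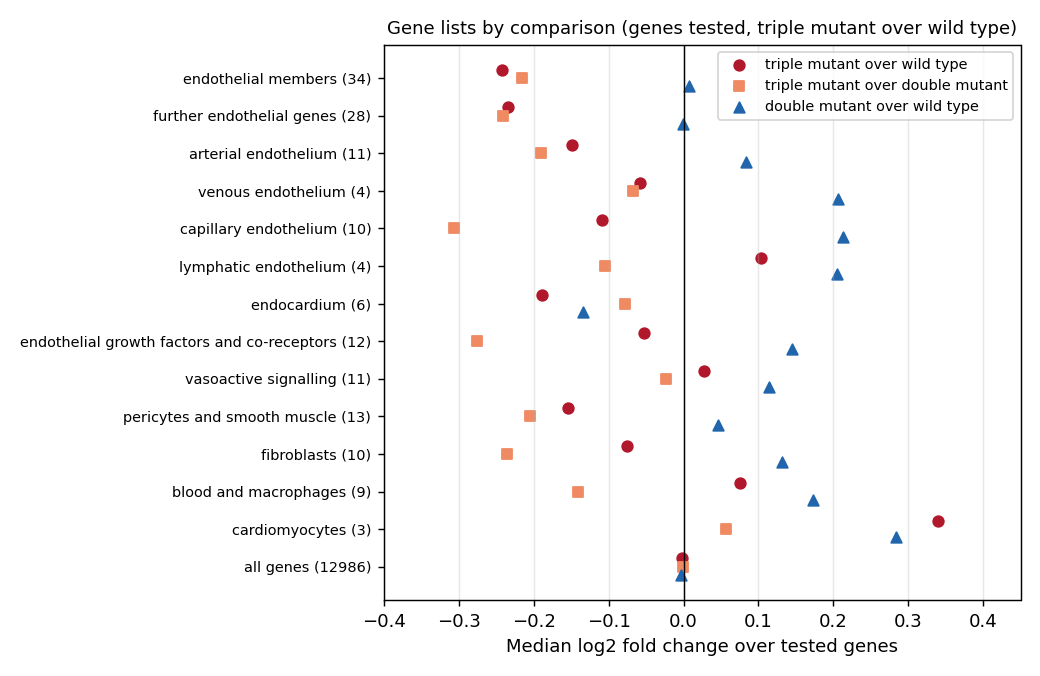
Median log2 fold change over the tested genes of each list in triple mutant over wild type (circles), triple mutant over double mutant (squares) and double mutant over wild type (triangles); the number tested in the first of these stands beside each name. The 34 endothelial genes and the further endothelial genes lie near −0.2 in both triple mutant comparisons and near 0 in double mutant over wild type, while all genes lie at 0. In triple mutant over double mutant other lists are low as well: capillary (−0.31), growth factors and co-receptors (−0.28), fibroblasts (−0.24), pericytes and smooth muscle (−0.20) and arterial (−0.19).

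Fibroblast, pericyte and blood markers were also lower in triple mutant than in double mutant ventricles for the most part. The few cardiomyocyte genes tested were split, with 1 lower and 2 higher, and none was called. Triple mutant over double mutant, all 10 tested fibroblast genes were lower (median −0.24), as were 10 of 13 pericyte and smooth muscle genes (median −0.20) and 6 of 9 blood and macrophage genes (median −0.14). In triple mutant over wild type the medians were −0.08 for fibroblasts, −0.15 for pericytes and smooth muscle and 0.07 for blood and macrophages, beside −0.24 for the endothelial genes. Summed over the tested genes, fibroblast markers came to 614 FPKM in triple mutant, 770.2 FPKM in double mutant and 649 FPKM in wild type ventricles. Pericyte and smooth muscle markers summed to 423, 515 and 472 FPKM, and blood and macrophage markers to 383, 406 and 366 FPKM in the same order of groups. The pericyte and smooth muscle list shares Mcam with the further endothelial genes, so those lists are not fully separate. The pericyte channel gene Kcnj8 was the only one of these called, and it fell in triple mutant over double mutant (log2 fold change −0.58; 15.4 FPKM in triple mutant, 23.1 FPKM in double mutant and 17.6 FPKM in wild type, q = 0.0114 in the authors' deposited table). Of 14 cardiomyocyte genes only 3 could be tested in each comparison, because the others, such as Myh6, Tnnt2 and Myl2, were listed at 0 with a failed estimate in at least 1 group. The 3 tested were Ckm, Nkx2-5 and Tbx20, with medians of 0.34 in triple mutant over wild type, 0.06 in triple mutant over double mutant (1 lower, 2 higher) and 0.28 in double mutant over wild type. In every comparison the median is the value of Nkx2-5, itself a gene altered in the triple mutant, so these medians say little about cardiomyocytes. Ckm, the muscle creatine kinase, had 388 FPKM in triple mutant, 418 FPKM in double mutant and 305 FPKM in wild type ventricles. In triple mutant over wild type the authors' deposited table gave log2 fold changes of 0.35 for Ckm (p = 0.0142, q = 0.225) and 0.34 for Nkx2-5 (p = 0.0226, q = 0.284), neither called. The part that the makeup of the tissue had in the endothelial values was not tested.

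Some facts of the whole table touch these values. Nkx2-5 itself had 55.2 FPKM in triple mutant, 53.1 FPKM in double mutant and 43.6 FPKM in wild type ventricles, which checks no genotype, since the labels do not say what the alleles do to the transcript. The FPKM of all genes summed to 322951 in triple mutant, 334141 in double mutant and 331702 in wild type ventricles, and 709 genes carried a failed estimate in some comparison. These sums took failed estimates as listed, such as Tnni3 at 0 in triple and double mutant and 1855 FPKM in wild type. Over tested genes only, the sums were 318129 in triple mutant against 317863 in wild type. They were 318430 in triple mutant against 325881 in double mutant, and 327614 in double mutant against 319904 in wild type. At a deposited q under 0.05, more genes were called higher than lower in every comparison, whereas the calls among the 34 members, made in the comparisons of the triple mutant, were all lower. The Y-linked gene Ddx3y had 10.02 FPKM in triple mutant, 13.99 FPKM in double mutant and 4.82 FPKM in wild type. The X-linked gene Xist had 88.2 FPKM in triple mutant and 1.21 FPKM in double mutant. It was listed at 0 with a failed estimate in wild type. Ddx3y was called higher over wild type in triple mutant (log2 fold change 1.06) and double mutant (1.54), each at a deposited q of 0.0066. Xist was called higher in triple mutant over double mutant (log2 fold change 6.18, q = 0.0066 in the authors' deposited table). Ddx3y was not called there (log2 fold change −0.48). Y-linked Uty was called higher only in double mutant over wild type. Kdm5d and Eif2s3y, also Y-linked, were called in no comparison. The sex of the pups is not in the labels, and sex and genotype cannot be told apart. Transcript length moved with both comparisons to wild type. Over all genes, in 8 bins, the median log2 fold change of the shortest and the longest transcripts was 0.09 and −0.07 in triple mutant over wild type and 0.08 and −0.10 in double mutant over wild type, beside −0.02 and 0.03 in triple mutant over double mutant. Among the members, the 17 shorter and the 17 longer transcripts had medians of −0.15 and −0.26 in triple mutant over wild type, 0.17 and −0.11 in double mutant over wild type, and −0.24 and −0.21 in triple mutant over double mutant. Centred on genes of like transcript length, the medians over all 34 members were −0.22 in triple mutant over wild type, −0.22 in triple mutant over double mutant and 0.04 in double mutant over wild type.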

How the data were processed

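RNA-seq of ventricles from 8 mice (3 triple mutant, 3 double mutant, 2 wild type) was analysed from the authors' deposited gene table. Base calls came from CASAVA 1.8, alignment to mm9 from STAR 2.5.2, and gene values from Cufflinks 2.2.1 and Cuffdiff 2.2.1; these names are taken from the submitters' processing notes. The sources used here name neither the gene annotation nor a normalization setting. The deposited values are FPKM per gene and group, log2 fold changes, a test score, p-values and q-values, per the file headers. The authors combined the libraries of a group into 1 FPKM value, so no value per sample was used and the depth is unknown. Total RNA libraries were stranded, per the labels' protocols.

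Group values were read by group name, and rows with a failed estimate (marked HIDATA) were left out of medians and counts over lists. The FPKM sums over all genes, and the rescaling to the same sum, took these rows as listed. The deposited log2 fold changes were checked against the ratio of the FPKM values, and the deposited q-values were found to be Benjamini-Hochberg adjusted over the 3 comparisons together. Medians and counts over lists of genes used only tested genes. The SE of a log2 fold change is its size divided by the normal quantile of the deposited p. No new test across samples could be made, and the test score was not used. Scripts ran in Python 3.11.15 with pandas 2.3.3, numpy 2.4.6, scipy 1.17.1 and matplotlib 3.10.9, and were tested on simulated data. Loci in the deposited table start from 0 and were moved by 1 base to be printed in mm9; promoters come from RefSeq in GRCm38.p6, and nothing was converted between builds. Transcript lengths came from GENCODE M21, which matched 32914 genes by Ensembl ID. Gene names are those the authors deposited, and listed symbols absent there were looked up by their older names in RefSeq.

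The members and the other lists were chosen with earlier results of these data known. All 34 members are named with group levels. Fold changes and q-values from the authors' deposited table are given in all 3 comparisons for members with a p under 0.05 in any of them and for the 6 of highest mean level. Of the other lists, genes with a q under 0.05 are named, with a few high-level genes. A few more, such as Podxl, Tcf15, Lyve1, Nrg1 and Ace, are named with their values known, and not every gene of like q is named. Whether hearts of 1 group came from separate litters is not in the labels. A comparison of the SoxF proteins was not analysed here.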

Additional observations from a re-analysis of the deposited data

How the results depend on the processing

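Over the alternatives tried, the median log2 fold change of the 34 members ran from −0.29 to −0.20 in triple mutant over wild type, from −0.26 to −0.17 in triple mutant over double mutant and from −0.09 to 0.04 in double mutant over wild type (9 alternatives each). The −0.20 and −0.17 came from FPKM rescaled to the same sum, where failed estimates counted as listed, many of them at 0. Leaving out the 8 members that other heart cells also express, Thbd among them, left 1 called member of 26 in triple mutant over wild type and 1 in triple mutant over double mutant; the members left out include called ones, by construction. At q under 0.1, 5 members were called lower in triple mutant over double mutant. Over the 23 members in loci of their own, 21 were lower in triple mutant over double mutant and 11 in double mutant over wild type, against 32 and 17 of 34, since fewer genes were counted. With q adjusted within the comparison, Aqp1 (0.0503) and Cxcl12 (0.0673) lost their call in triple mutant over double mutant. No paired analysis was possible because the file holds no values per sample, and for the same reason no replicate could be left out. The unknown depth limits what the p-values alone can show.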
